A study of Tachycineta bicolor with 20 samples.

Results

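The 200 transcripts that varied most among the ovaries of 20 wild adult female tree swallows (Tachycineta bicolor) were described here, out of 14782 transcripts counted by RNA sequencing. They were chosen by their counts alone. Counts were scaled to the total of the bird's library (CPM), transcripts were kept if their ID stem had a single row and their mean was from 1 to 300 CPM, and the 200 of highest standard deviation (SD) of log2(CPM + 1) over the birds were taken from the 10606 that remained. The values that chose them are given below as a description. No group label entered the choice, so the 4 groups could be compared, although a spread over all birds includes any difference between groups.

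The tree swallow is a songbird that breeds in cavities and competes for nest sites. In the experimental arm nest boxes were removed temporarily, which raised competition among free-living birds, and ovaries were collected at the peak of competition (Day 0) from 6 birds and 2 days later (Day 2) from 4 birds. Control birds were sampled on matching dates without any manipulation, 5 on Day 0 and 5 on Day 2. The labels used here give no breeding stage, follicle size or clutch stage, and no treatment other than the removal of boxes.

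The bird ovary is a mixed organ in which small follicles lie beside a series of growing, yolk-filled ones. Granulosa and theca cells around each oocyte make steroid hormones, and stroma, vessels, blood and immune cells share the tissue. Follicles grow and regress quickly in a breeding female, so a whole ovary holds these cells in proportions that can change from day to day. A bulk count cannot tell apart fewer cells of a type and less RNA per cell. Transcripts carry IDs without gene names, so no roles can be given to the members, and the ovarian identity of the samples could not be checked against marker genes.

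Library totals ran from 5818117 to 15718893 counts, and each bird was a separate library. Counting error was a small part of what is described, since it accounted for a median of 1.36% of a member's variance in log2(CPM + 1) and for 4.12% at most. Among the other 10406 eligible transcripts its median share was 6.34%. A lower share in the members is built in, because the share is taken of the variance that chose them. Each p-value below tests a difference of group means against the spread between birds.

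The members had SDs from 1.05 to 3.36 on the log2(CPM + 1) scale, with a median of 1.26, against a median of 0.34 for the other eligible transcripts. From the lowest to the highest bird, the median member spanned 23.8-fold in CPM + 1 and the median other transcript 2.43-fold. The members were found at all levels of the window, with means from 1.44 to 296 CPM and a median of 10.8 CPM, below the median of 31.3 CPM of the others. The choice has no natural break at its lower end. The last members inside were tree_swallow006419t1_sg0.0 (SD 1.0573) and tree_swallow010003t1_sg0.0 (SD 1.0549). The first transcripts outside were tree_swallow038605t1_sg0.0 (SD 1.0542) and tree_swallow009028t1_sg0.0 (SD 1.0541).

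**Figure D1:**
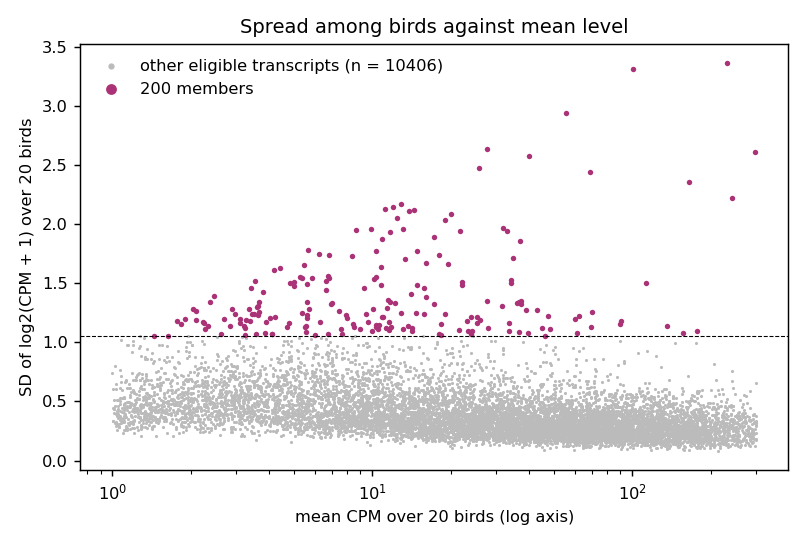
SD of log2(CPM + 1) over 20 birds against mean CPM (log axis) for the 10606 eligible transcripts, with the 200 members in colour and the lowest member SD of 1.05 as a dashed line. Members occur across the whole range of levels, and a small number lie far above the rest, up to an SD of 3.36.

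The 10 most variable transcripts all had their highest value in control bird 1 or control bird 2 of Day 0, and all fell in set A of the covarying sets described below. The transcript of highest SD, tree_swallow004098t1_sg0.0 (SD 3.36), had 1900, 833, 17.5, 13.6 and 7.59 CPM in control birds 1 to 5 of Day 0 and 0.897, 68.3, 1.41, 121 and 118 CPM in those of Day 2. In the experimental birds it ran from 1.18 through a median of 3.37 to 799 CPM on Day 0, and it had 1.25, 515, 2.80 and 132 CPM on Day 2. High and low birds thus occurred in every group, and the ranges of the groups overlapped.

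The second, tree_swallow005241t1_sg0.0 (SD 3.31), had 472, 697, 8.41, 6.505 and 1.45 CPM in control birds 1 to 5 of Day 0. It had 0, 47.5, 0, 70.7 and 23.0 CPM in those of Day 2. In the 6 experimental birds of Day 0 it ran from 0 through a median of 1.30 to 318 CPM, and in the 4 of Day 2 it had 0.192, 293, 0.382 and 39.2 CPM. Control birds 1 and 2 of Day 0, experimental bird 5 of Day 0 and experimental bird 2 of Day 2 were again the highest. At these depths a count of 0 allows up to 3 counts, which is 0.191 to 0.516 CPM depending on the library, for counting error only.

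The other 8 of these 10 were tree_swallow005422t1_sg0.0, tree_swallow005664t1_sg0.0, tree_swallow005322t1_sg0.0, tree_swallow009780t1_sg0.0, tree_swallow010591t1_sg0.0, tree_swallow010503t1_sg0.0, tree_swallow008822t1_sg0.0 and tree_swallow036280t2_sg0.0. Their SDs ran from 2.94 down to 2.22. The last of them ran from 6.13 CPM in control bird 1 of Day 2 to 1135 CPM in control bird 2 of Day 0. Their order of birds was not the same throughout. For tree_swallow005322t1_sg0.0, experimental bird 5 of Day 0 had 12.7 CPM and experimental bird 6 of Day 0 had 112 CPM, against 2232 CPM in control bird 1 of Day 0.

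Graded members were the most numerous class, and 1 member met the rule for an on-off pattern. To sort them, the 20 values of each member were put in order and the largest gap between neighbouring birds was measured on the log2(CPM + 1) scale. The gap was under 1 in 100 members, called graded, and from 1 to under 2 in 75, called intermediate. Only 25 had a gap of at least 2, a 4-fold step in CPM + 1, and 15 of these had 1 bird above the step (single-bird) and 1 had 1 bird below it (single-low). In 8 the step divided 2 to 14 higher birds from birds that were not all under 1 CPM (high-low), and in 1 every bird below the step was under 1 CPM (on-off). Among the other eligible transcripts 98.5% were graded. The members were chosen for spread, so a larger share with gaps is built in. No member was at a count of 0 in 10 or more birds. In 151 every bird had at least 1 count, in 75 every bird had at least 1 CPM, and in 41 at least 10 birds were under 1 CPM.

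The graded members of highest SD were tree_swallow004811t1_sg0.0, which rose from 2.21 to 188 CPM with no gap above 0.90, and tree_swallow005745t1_sg0.0, which rose from 0.153 to 46.7 CPM with no gap above 0.95. Their birds formed a continuous series rather than classes. The high-low members of highest SD were tree_swallow005241t1_sg0.0, described above, and tree_swallow010503t1_sg0.0. The latter had a gap of 2.49 (5.62-fold in CPM + 1), with 184 to 430 CPM in the 4 birds above it and at most 31.9 CPM in the 16 below. The birds above the gap were the same 4 as above, from 3 of the 4 groups.

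The on-off member, tree_swallow011350t1_sg0.0, was low in control bird 4 of Day 0 (0.574 CPM, 6 counts) and in control bird 4 of Day 2 (0.236 CPM, 3 counts). The 18 birds above the step ran from 6.54 to 73.8 CPM. Both low birds were thus controls, of different days, and the experimental birds all carried it at 6.54 CPM or more. The single-low member, tree_swallow002525t1_sg0.0, had no count in experimental bird 2 of Day 2 and from 9.60 to 67.3 CPM in the other 19 birds. Set against the 0.364 CPM that 3 counts would give in that library, the lowest other bird was at least 26.4-fold higher. That same bird was among the highest for many members described here.

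Among the 15 single-bird members, 10 were high in control bird 5 of Day 2, 2 in control bird 5 of Day 0, and 1 each in experimental birds 3 and 6 of Day 0 and experimental bird 2 of Day 2. The highest SD belonged to tree_swallow006666t1_sg0.0, with 112 CPM in control bird 5 of Day 2 and at most 3.75 CPM in the other 19 birds. Next came tree_swallow008048t3_sg0.1, with 173 CPM in the same bird and at most 9.51 CPM in the others. Outside that bird, tree_swallow004975t1_sg0.0 reached 72.9 CPM in control bird 5 of Day 0 against at most 6.67 CPM elsewhere, and tree_swallow011878t1_sg0.0 reached 77.9 CPM in experimental bird 6 of Day 0 against at most 9.54 CPM. These last names were picked after their values were seen.

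**Figure D2:**
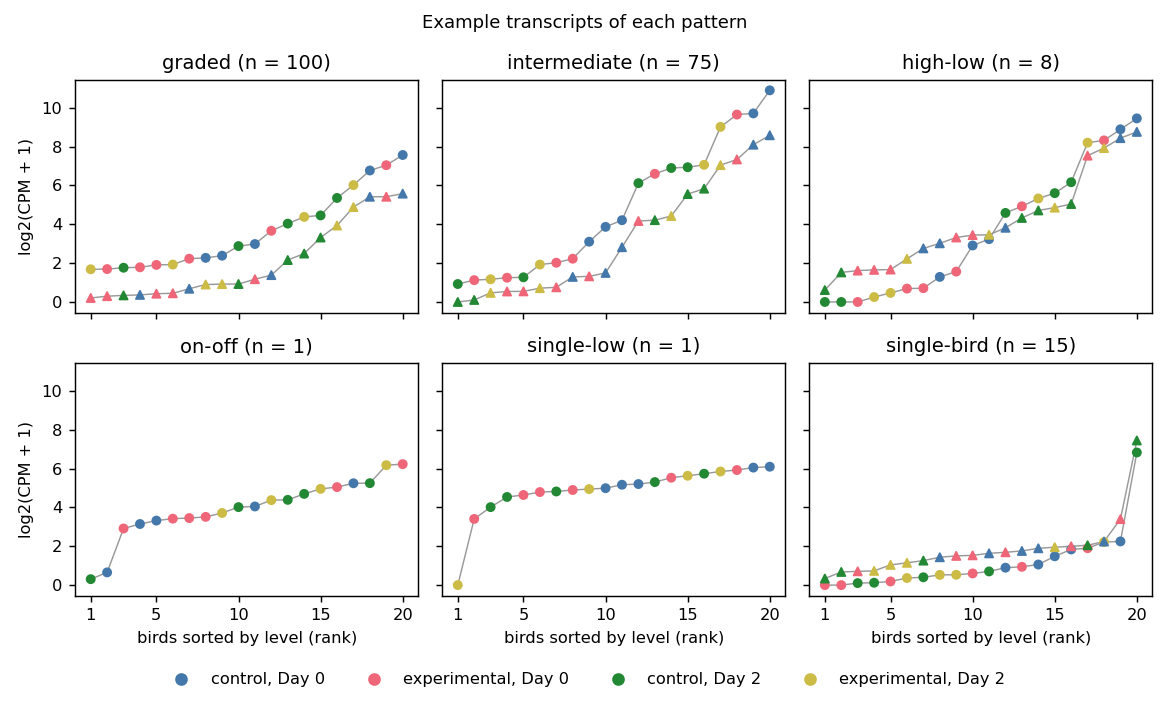
Log2(CPM + 1) of example transcripts in the 20 birds sorted by level, 1 panel for each pattern and up to 2 transcripts a panel (circles and triangles), coloured by group. The graded examples climb without a break, while the single-bird examples are low except for 1 control bird of Day 2.

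The members covaried far more than other transcripts did. The median Pearson's r over 20 birds was 0.27 among the 19900 pairs of members and 0.01 among pairs of other eligible transcripts, and r was above 0.6 in 25.7% of member pairs against 3.96% of other pairs. These values describe the same 20 libraries, which share their depth and their birds. The members were also chosen for spread over these birds, so part of the contrast with other transcripts can be built in. How large that part is was not tested. The first principal component of the members accounted for 54.7% of variance, and the next components for 10.2% and 6.56%. Clustering on 1 minus r (average linkage, height 0.4) gave 4 sets of at least 5 members, which held 86, 30, 18 and 8 members and are called sets A to D. The other 58 members fell in no set. The level of a set is the mean log2(CPM + 1) of its members in a bird, and since the sets were built from these values, set levels are a description with no test.

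**Figure D3:**
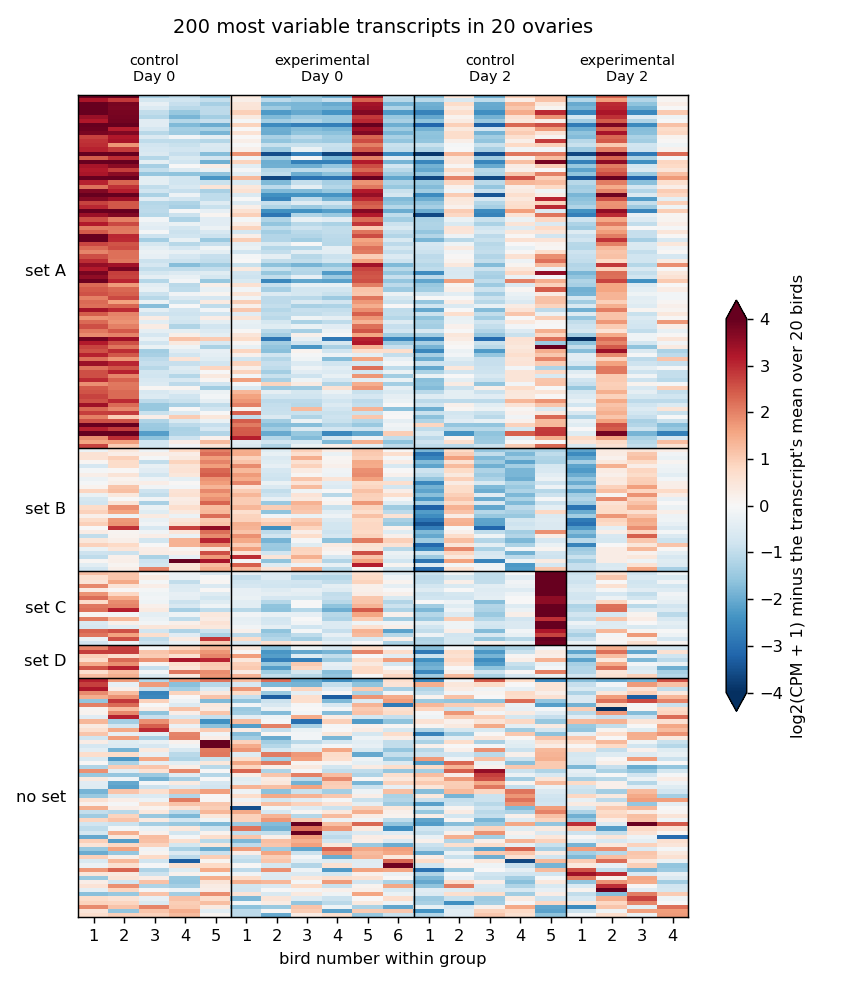
Log2(CPM + 1) of each of the 200 members (rows, ordered by set) in 20 birds (columns, ordered by group), centred on the mean of the transcript, with colours capped at -4 and 4. Set A is high in control birds 1 and 2 of Day 0 and, for most of its 86 members, in experimental bird 5 of Day 0 and experimental bird 2 of Day 2, and the 18 of set C in control bird 5 of Day 2.

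Set A was the main axis of the variable transcripts. Its members correlated with each other at a median r of 0.84, and their levels ran over 24.1-fold in CPM + 1. The set level was 5.52, 5.27, 1.65, 1.74 and 1.81 in control birds 1 to 5 of Day 0 and 0.93, 2.47, 1.09, 2.91 and 3.46 in those of Day 2. In the experimental birds of Day 0 it ran from 1.06 through a median of 1.40 to 4.25, and on Day 2 it was 1.17, 4.41, 1.41 and 2.54. So the set was high in 2 of 5 controls and in 1 of 6 experimental birds on Day 0, and the largest gap between birds, 0.86, lay just below the 2 control birds. Both belonged to the 4 highest birds in 85 of 86 members, and in 54 the 4 highest were exactly those 2, experimental bird 5 of Day 0 and experimental bird 2 of Day 2.

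Set A members took 1.13% and 0.871% of all counts in control birds 1 and 2 of Day 0, against 0.0163% in control bird 1 of Day 2, the lowest bird. The members closest to the set level were tree_swallow005627t1_sg0.0 (r = 0.99) and tree_swallow005663t1_sg0.0 (r = 0.98). The former had 84.9 and 87.5 CPM in control birds 1 and 2 of Day 0, 37.0 CPM in experimental bird 5 of Day 0 and 18.9 CPM in experimental bird 2 of Day 2. It was at a count of 0 in 4 birds, and its median over the 20 was 0.89 CPM. Beyond the members, 73 other eligible transcripts had an r of at least 0.8 with the level of set A. The set level had an r of 0.24 and a rho of 0.10 with log2 library total over the 20 birds, and an r of 0.08 without the 2 birds farthest from the median total.

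Set B had no gap of 1 or more between birds in its level. Of its 30 members 23 were graded and 7 intermediate, their median pair r was 0.75, and the set level spanned 16.1-fold in CPM + 1. It was 4.28, 4.89, 4.00, 4.87 and 6.18 in control birds 1 to 5 of Day 0 and 2.17, 5.12, 2.96, 2.87 and 3.87 in those of Day 2. Experimental birds of Day 0 ran from 3.65 through a median of 4.51 to 5.57, and experimental birds 1 to 4 of Day 2 had 2.47, 4.68, 5.28 and 4.11. Control bird 5 of Day 0 was the highest bird for 15 of the 30 members. The largest gap in the set level, 0.69, had 16 birds above it. Below it lay control birds 1, 3 and 4 and experimental bird 1, all of Day 2. Of these, control bird 1 and experimental bird 1 were the lowest. The members closest to the set level were tree_swallow009164t1_sg0.0 (r = 0.95), with 23.7 to 428 CPM, and tree_swallow022575t1_sg0.0 (r = 0.95), with 2.09 to 111 CPM. As many as 266 other eligible transcripts had an r of at least 0.8 with the level of set B, more than with any other set.

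Set C was set apart by 1 bird. Its level was 5.91 in control bird 5 of Day 2 and from 0.68 to 2.78 in the other 19, and all 18 members had their highest value in that bird. Among them 10 were single-bird members. The members closest to the set level were tree_swallow004052t1_sg0.0 (r = 0.98), with 36.4 CPM in that bird and at most 3.62 CPM in the rest, and tree_swallow006666t1_sg0.0, described above. In the other 19 birds the set was low, and its level correlated with that of set A. The r of the levels of sets A and C was 0.62 over 20 birds and 0.92 without control bird 5 of Day 2, and it was 0.84 over the 17 birds left when control birds 1 and 2 of Day 0 were left out as well. Those 17 kept experimental bird 5 of Day 0 and experimental bird 2 of Day 2, their highest birds in both sets. In some birds the median set C member was below 3 counts. It had 0.136 CPM in experimental bird 4 of Day 0 and 0.344 CPM in experimental bird 2 of Day 0, where 3 counts are 0.272 and 0.516 CPM. Control bird 5 of Day 2 held 0.130% of its counts in set C, and its library total of 8927386 lay within the range of the others.

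Set D, with 8 members, stood highest in Day 0 controls. Its level was 5.85, 6.31, 4.60, 5.55 and 6.03 in control birds 1 to 5 of Day 0, and 2.35, 4.82, 2.52, 3.76 and 4.72 in those of Day 2. It ran from 2.43 through a median of 4.12 to 5.10 in experimental birds of Day 0 and was 2.99, 5.56, 3.66 and 3.49 on Day 2. The lowest Day 0 control, bird 3, lay below the highest bird of each of the other groups, so the ranges overlapped. The set level correlated with that of set A (r = 0.71) and with that of set B (r = 0.70), while the levels of A and B correlated less (r = 0.33). The members closest to its level were tree_swallow012279t1_sg0.0 (r = 0.94), described below, and tree_swallow019252t1_sg0.0 (r = 0.93), with 0.299 to 62.4 CPM. Membership in set D depended on single birds, as only 4 of the 8 clustered together without control bird 5 of Day 2 and 5 without control bird 3 of Day 2.

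**Figure D4:**
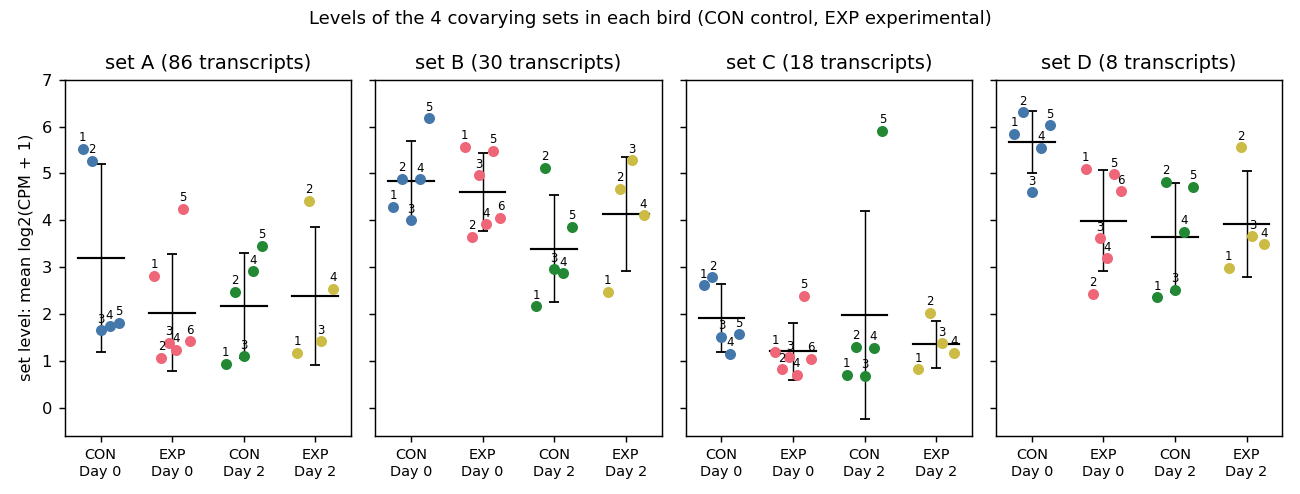
Level of each covarying set, the mean log2(CPM + 1) of its members, in every bird (points, numbered by bird within the group), with group means (bars) and SDs (whiskers). Set C is at 5.91 in control bird 5 of Day 2, with a gap of 3.14 below that bird. The largest gaps between birds in sets A, B and D are 0.86, 0.69 and 0.84.

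The 58 members in no set belonged to no cluster large enough to count as a set. Smaller groups that covary can be among them, and r was above 0.6 in 0.907% of their 1653 pairs. Their median pair r was 0.02, close to that of other eligible transcripts. A low median is built in, because these members were left over from clustering on r. Their highest values were spread over 19 of the 20 birds, with at most 6 in any bird. They held 33 graded and 17 intermediate members. The most variable of them was tree_swallow007940t1_sg0.0 (SD 2.12), with 88.5 CPM in experimental bird 3 of Day 0 and 0.0748 CPM in control bird 1 of Day 2. As many as 57 members peaked in control bird 1 of Day 0 and 41 in control bird 2 of Day 0, and 63 were lowest in control bird 1 of Day 2. The summed share of counts in the 200 members followed the same birds, from 0.124% in control bird 1 of Day 2 to 1.42% in control bird 1 of Day 0.

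The comparison of groups asks how much of the spread of these transcripts lay between treatments and days. Differences between the 4 groups made up a median of 12.7% of the variance of a member (quartiles 8.66% and 21.9%), against 15.8% for the other eligible transcripts. Means of so few birds differ even where group labels carry no information. Such a share is therefore not by itself a measure of treatment or day. The members varied widely inside every group, with a median SD of 1.43 in Day 0 controls, 1.17 in Day 0 experimental birds, 1.18 in Day 2 controls and 1.24 in Day 2 experimental birds. The other eligible transcripts had medians of 0.31, 0.35, 0.29 and 0.27 in the same order. For members in no set the 4 medians were 1.11, 1.06, 1.09 and 1.18, so the higher spread of Day 0 controls did not appear in them.

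With edgeR's quasi-likelihood test on all 13742 transcripts that passed a filter on low counts, 198 members could be tested and 0 were called at an adjusted p under 0.05 in any comparison. The 2 that failed the filter, tree_swallow041931t1_sg0.0 and tree_swallow068893t1_sg0.0, were single-bird members of set C. The share of all transcripts called was 0.00728% for treatment on Day 2 and 0% in the other 6 comparisons. At an unadjusted p under 0.05, 25 of 198 members (12.6%) differed by treatment on Day 0, where the share of all transcripts was 7.62%. Of these 19 were lower in experimental birds (3.49% of all transcripts were) and 6 higher (4.13% of all). On Day 2 there were 23 (11.6%, against 6.08% of all), with 10 higher (3.56% of all) and 13 lower (2.53% of all). For treatment averaged over days there were 19 (9.6%, against 3.0%), with 5 higher (1.55% of all) and 14 lower (1.45% of all).

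Between days in controls 41 members had an unadjusted p under 0.05 (20.7%, against 13.7% of all), with 8 higher on Day 2 (5.49% of all) and 33 lower (8.19% of all). In experimental birds there were 12 (6.06%, against 5.10%), with 7 higher (2.33% of all) and 5 lower (2.77% of all). The change of the treatment effect between days gave 31 (15.7%, against 11.4%), of which 24 were positive (5.57% of all) and 7 negative (5.78% of all). Any difference among the 4 groups gave 32 (16.2%, against 8.19%). Members of a set move together, so these counts are not counts of independent transcripts. Members were also chosen for spread over all birds, which includes any difference between groups. A higher share than among all transcripts can therefore be partly built in, and how large that part is was not tested. The median share of variance between groups was not higher in members, at 12.7% against 15.8% for the other eligible transcripts. DESeq2 called 2 members for treatment on Day 2, 6 for the interaction, 5 between days in controls, 2 between days in experimental birds and 6 for any difference, where it called 0.124%, 0.678%, 1.34%, 0.0657% and 0.649% of all transcripts. It called no member for treatment on Day 0, where it called 0.102% of all, or for treatment averaged over days, where it called 0% of all. Limma-voom called 1 member, for treatment on Day 2, where it called 0.102% of all.

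Group means of many members rested on few birds, though not equally in all sets. On Day 0 the median log2 difference of experimental from control birds was -1.12 over the members (162 of 198 negative) and 0.00 over all transcripts tested. All 86 members of set A were negative, at a median of -1.53. Members of a set were clustered on r over these same birds, so a shared sign within a set is partly built in. Counts of signs within a set, here and below, are therefore not counts of independent transcripts. Without control birds 1 and 2 of Day 0 and control bird 5 of Day 2, 83 of the 86 were positive, at a median of 1.56. When experimental bird 5 of Day 0 and experimental bird 2 of Day 2 were left out too, 80 of the 86 passed the filter on low counts, 43 of them positive, at a median of 0.03. Set D kept its direction on Day 0, with 8 of 8 negative each time. Its median was -1.46 with all birds, -1.02 without the 3 birds and -1.15 without the 5. In set B 20 of 30 were negative with all birds (median -0.13), 22 without the 3 (-0.34) and 26 without the 5 (-0.53). These omissions were chosen from the members' own levels after they had been seen. The first took out controls only. Experimental bird 2 of Day 2 and experimental bird 5 of Day 0 were kept in it, with mean member levels of 3.97 and 3.95. Control bird 5 of Day 2, which was left out, had 3.65. An upward shift of the Day 0 difference was therefore built in, and the values show only how far the group means rest on these birds.

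On Day 2 the members' median difference by treatment was 0.45, with 136 of 198 positive, and it was -0.42 without experimental bird 2 of Day 2 alone. For set C on Day 2, all 16 tested members were lower in experimental birds, at a median of -3.21, and without the 3 control birds 13 of the 14 then tested were higher, at a median of 0.66. Between days in controls the members' median was -1.28 with all birds and -0.12 without the 3 control birds. There set A went from a median of -1.79 (85 of 86 negative) to 0.50 (66 of 86 positive). Sets B and D kept their direction between days in controls. For set B this says little, because none of the birds left out was the highest or lowest of its group. Its highest control, bird 5 of Day 0 at a level of 6.18, was kept. Set D lost control birds 1 and 2 of Day 0, at levels of 5.85 and 6.31. It also lost control bird 5 of Day 2 at 4.72, above that group's mean of 3.63, which by itself lowers the Day 2 mean. Set B was lower on Day 2 at a median of -1.28, with 29 of 30 negative, and at -1.56 without the 3 birds, and set D was lower at -2.06 and -1.76, with 8 of 8 negative in both cases. None of these members passed the adjusted test by edgeR, the smallest adjusted p being 0.181 in set B and 0.140 in set D. The members with these values were tree_swallow012763t1_sg0.0 of set B and tree_swallow012279t1_sg0.0 of set D. DESeq2 called both, at adjusted p of 0.0200 and 0.00920.

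**Figure D5:**
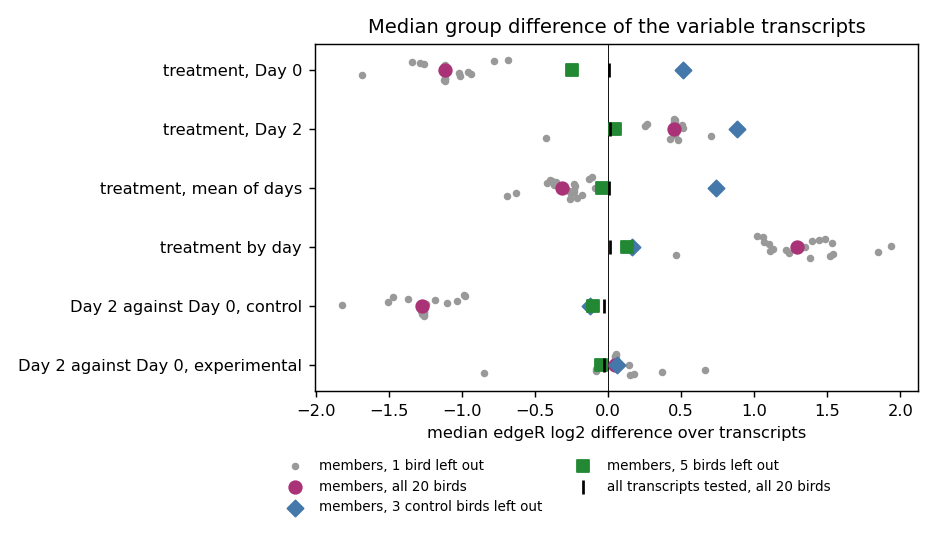
Median edgeR log2 difference over the tested members for 6 comparisons, with all 20 birds (large circles), with each bird left out (small circles), without 3 control birds (diamonds) and without 5 birds (squares), beside the median of all transcripts tested (ticks). On Day 0 the members' median goes from -1.12 with all birds to 0.51 without 3 control birds and -0.25 without 5 birds.

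The members of smallest p in the comparisons are given next, and none of them passed with edgeR on all birds. The transcript tree_swallow009929t1_sg0.0, in no set, had 218, 321, 140, 267 and 259 CPM in control birds 1 to 5 of Day 2 and 35.2, 65.2, 31.1 and 41.4 CPM in the experimental birds of that day. On Day 0 it had 53.3, 254, 273, 147 and 58.9 CPM in control birds and from 75.2 through a median of 159 to 226 CPM in experimental birds. The experimental birds of Day 2 lay below every control of Day 2 and, apart from bird 2, below every bird of Day 0. Its log2 difference by treatment on Day 2 was -2.50 (SE 0.45, edgeR adjusted p = 0.122). Over 28 alternatives the adjusted p ran from 1.1e-05 with DESeq2 to 0.328, and it passed in 5.

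The transcript tree_swallow017663t1_sg0.0, a high-low member, had 26.6 and 20.0 CPM in experimental birds 1 and 2 of Day 2 and 0.763 and 1.10 CPM in birds 3 and 4. All other groups lay between 0.150 and 2.72 CPM. The group was therefore divided, with 2 of its 4 birds inside the range of the others. Its log2 difference by treatment on Day 2 was 4.22 (SE 0.83, edgeR adjusted p = 0.150, from 0.0004035 with DESeq2 to 0.9997 over 28 alternatives), and it passed only with DESeq2. For any difference among the 4 groups it had the smallest p of all members (adjusted p = 0.144 with edgeR, 3.5e-05 to 0.913 over 27 alternatives).

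The transcript tree_swallow002755t1_sg0.0 had opposite differences on the 2 days. On Day 0 it had 5.29, 5.12, 5.57, 12.1 and 7.10 CPM in control birds and from 6.70 through a median of 33.1 to 72.5 CPM in experimental birds. On Day 2 the controls had 41.5, 20.8, 123, 14.2 and 10.6 CPM and the experimental birds 11.7, 16.7, 9.61 and 16.6 CPM. All but 1 experimental bird of Day 0 lay above every Day 0 control, while on Day 2 the ranges overlapped. The log2 change of the treatment effect from Day 0 to Day 2 was -3.99 (SE 0.90), which did not pass with edgeR (adjusted p = 0.174) and passed with DESeq2 (0.00554), over a range of 0.00554 to 0.612 in 27 alternatives. A similar course was seen for tree_swallow151246t1_sg0.0, with 2.31 to 9.29 CPM in Day 0 controls, 6.95 to 43.7 CPM in Day 0 experimental birds, 6.45 to 62.1 CPM in Day 2 controls and 7.30 to 15.7 CPM in Day 2 experimental birds.

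Day 0 controls held the highest values of tree_swallow006988t1_sg0.0 and tree_swallow012279t1_sg0.0. The former had 14.4, 27.4, 77.7, 12.9 and 19.0 CPM in Day 0 controls and 3.36, 5.16, 5.55, 2.68 and 5.04 CPM in Day 2 controls. Its experimental birds ran from 4.13 through a median of 8.16 to 11.6 CPM on Day 0 and had 2.31, 9.71, 6.04 and 23.0 CPM on Day 2. Neither the Day 2 controls nor the Day 0 experimental birds overlapped with the Day 0 controls, while experimental bird 4 of Day 2 did. Between days in controls its log2 difference was -2.77 (SE 0.54), with an adjusted p of 0.0951 by edgeR and of 0.000399 to 0.544 over 28 alternatives. The edgeR value was the smallest of all members and equal to the smallest of all transcripts tested. Several transcripts can share an adjusted p, so it need not have had the smallest unadjusted p of all transcripts. The latter, of set D, had 131, 218, 30.4, 59.8 and 82.0 CPM in Day 0 controls and 9.42, 30.3, 9.08, 13.5 and 29.0 CPM in Day 2 controls. Its lowest Day 0 control and its highest Day 2 control differed by less than 1 CPM. Unlike in the former, Day 0 experimental birds overlapped with the Day 0 controls. Experimental bird 5 of Day 0 had 647 of 12089161 counts, and control bird 3 of Day 0 had 322 of 10584044. Control birds 1 and 2 of Day 0 were the highest birds. Experimental bird 2 of Day 2, with 87.6 CPM, was the highest of its group and lay above control birds 3, 4 and 5 of Day 0. The log2 difference of this transcript between days in controls was -2.48 (SE 0.58, edgeR adjusted p = 0.140, 0.00920 to 0.544 over 28 alternatives).

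Averaged over both days, tree_swallow007940t1_sg0.0 had the smallest p among members higher in experimental birds. It had 88.5, 23.9 and 10.5 CPM in experimental birds 3, 5 and 4 of Day 0 and under 1 CPM in the other 3. On Day 2 it had 37.9, 2.55, 76.2 and 26.4 CPM in experimental birds, and controls had at most 1.96 CPM on Day 0 and at most 0.793 CPM on Day 2 except for 13.8 CPM in control bird 4. High values were therefore mostly those of experimental birds, but 3 of 10 such birds were under 1 CPM. The log2 difference was 3.802 (SE 0.98), and it did not pass (edgeR adjusted p = 0.9997, from 0.0842 to 1 over 27 alternatives). Other members of small p rested on 1 bird. Examples are tree_swallow001219t1_sg0.0, with 51.5 CPM in experimental bird 2 of Day 2 and 0.695 to 4.33 CPM in the other 19 birds, and tree_swallow003869t1_sg0.0 and tree_swallow006182t1_sg0.0 of set C, with 63.0 and 49.8 CPM in control bird 5 of Day 2. Between days in experimental birds tree_swallow013968t1_sg0.0 had a lower mean on Day 2, at 7.30 to 22.8 CPM against 9.97 to 138 CPM on Day 0. The ranges overlapped. The high Day 0 values were those of experimental birds 1 and 5 (593 and 1666 counts, against 58 to 139 in the others). It did not pass (edgeR adjusted p = 0.899, 0.642 to 0.9997 over 28 alternatives).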

How the data were processed

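The authors deposited unnormalized counts, whole numbers for each transcript in each bird. Per the labels' protocols, frozen ovaries gave Trizol RNA for stranded mRNA libraries. The submitters' processing notes name fastp 0.20.1, Bowtie2 2.4.2, CASAVA and SAMtools. Reference, counting program and strand use are not given. Columns were matched to birds by title, and 1 line that names no transcript (0 counts) was left out. Birds were numbered within each group in sample order, which pairs none of them.

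CPM here is a count over the column total. Reads shared with near-identical copies cannot be seen in the table. All transcripts passing filterByExpr (minimum count 10) were fitted in edgeR 4.0.16 (R 4.3.3) with TMM factors, 4 group means, robust quasi-likelihood and Benjamini-Hochberg adjustment over 13742 transcripts, and members were read from that fit. Standard errors are the log2 difference over the root of F. Alternatives were DESeq2 1.42.0, limma-voom weighted by sample (limma 3.58.1), and the scalings, filters, thresholds and left-out birds of the closing section. Scripts were tested on simulated data. Named transcripts are those of highest SD, those at the threshold, those of highest SD in each pattern, those closest to each set and those of smallest p in each comparison. The members, lists and tests were chosen with earlier results of these data known.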

Additional observations from a re-analysis of the deposited data

Results flagged for a closer look

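In 24 of 168 group tests 1 bird lay far from the others of its group by Dixon's test on log2 values. A rate of 1 in 20 would give 8.4, but this is no baseline here. Members were chosen for spread, and some were named because 1 bird stood apart, so their flags follow from that choice. The tests also share the same birds. Control bird 5 of Day 2 stood above its group in the level of set C (5.91, others 0.68 to 1.30) and in 5 named transcripts. It had 63.0 CPM of tree_swallow003869t1_sg0.0, 36.4 of tree_swallow004052t1_sg0.0, 49.8 of tree_swallow006182t1_sg0.0, 112 of tree_swallow006666t1_sg0.0 and 173 of tree_swallow008048t3_sg0.1, where the other 4 birds had at most 3.15 CPM of any of them.

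Experimental bird 5 of Day 0 stood above its group in the level of set C (2.39, others 0.71 to 1.196). It also had 2.07 CPM of tree_swallow004052t1_sg0.0, 130 of tree_swallow004811t1_sg0.0, 41.7 of tree_swallow005745t1_sg0.0, 7.28 of tree_swallow010003t1_sg0.0 and 184 of tree_swallow010503t1_sg0.0. Experimental bird 2 of Day 2 was high for tree_swallow006419t1_sg0.0 (2.31 CPM, others at most 0.192), tree_swallow006666t1_sg0.0 (3.64, others at most 0.445) and tree_swallow012279t1_sg0.0 (87.6, others 18.9 to 20.5), and had 0 CPM of tree_swallow002525t1_sg0.0 where the others had 29.7 to 56.6. Experimental bird 1 of Day 0 had 4.31 CPM of tree_swallow006419t1_sg0.0, where the others had at most 0.345.

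In control bird 4 of Day 2, tree_swallow007940t1_sg0.0 was high (13.8 CPM, others at most 0.793), and tree_swallow011350t1_sg0.0 (0.236 CPM, others 15.2 to 37.0) and tree_swallow013968t1_sg0.0 (2.20, others 8.85 to 13.9) were low. For tree_swallow009164t1_sg0.0 of set B, control bird 2 of Day 2 had 179 CPM (others 28.9 to 42.5) and experimental bird 1 of Day 2 had 23.7 CPM (others 128 to 148). Control bird 5 of Day 0 had 111 CPM of tree_swallow022575t1_sg0.0 (others 26.9 to 34.3), and control bird 2 of Day 0 had 2.31 CPM of tree_swallow151246t1_sg0.0 (others 6.99 to 9.29).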

How the results depend on the processing

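With 1 bird left out, 184 to 197 of the 200 members were kept; with TMM scaling 198, thinned libraries 191, pseudocount 0.5 174, stems of several rows 163, pseudocount 5 150, and without 3 control birds 153. Omissions of 3 and 5 birds were chosen after seeing the data. Without 5 birds 119 were kept.

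A gap of 1.5 gave 48 intermediate, 2 single-low, 3 on-off and 29 high-low members, a gap of 2.5 gave 0 on-off and 0 high-low, and a pseudocount of 0.5 gave 2 single-low and 2 on-off. With 1 bird left out there were 84 to 102 graded, 73 to 89 intermediate, 5 to 17 single-bird (5 without control bird 5 of Day 2), 0 to 3 single-low, 0 to 2 on-off and 7 to 20 high-low members. The high-low count was 20 when experimental bird 2 of Day 2 was omitted, and 13 for control bird 4 of Day 2. Without 3 birds 7 were single-bird, and without 5 birds 0 single-low, 2 on-off and 1 high-low.

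With 1 bird left out there were 3 to 4 sets, 82 to 86 members of set A, 26 to 30 of B, 12 to 18 of C and 4 to 8 of D stayed together, component 1 held 50.1% to 57.7% and groups held a median of 8.97% to 18.8% of variance. By Spearman's rho 11 of set C stayed together. Without 3 birds it was 9 of set C and 5 of set D, with 45.7% on component 1. Without 5 birds it was 56 of set A, 2 of C and 5 of D, with 33.1%.

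Calls of members moved from 0 for treatment on Day 2 (1 with only the compared groups, 1 with limma-voom, 2 with DESeq2, 0 to 1 with 1 bird left out, the 1 without control bird 1 or 5 of Day 0), the interaction (6 with DESeq2), days in controls (5 with DESeq2, 1 at an adjusted p under 0.10), days in experimental birds (2 with DESeq2) and any difference (6 with DESeq2, 0 to 1 with 1 bird left out, the 1 without experimental bird 3 or 4 of Day 2). With 1 bird left out the other 5 comparisons stayed at 0 calls. The cause of these shifts was not tested. No paired analysis was possible because bird numbers pair no birds. Low members are limited by depth, as 3 counts are 0.191 to 0.516 CPM.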

Other observations

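Transcript IDs carry a running number of unstated meaning. In set A 27 of 86 members (31.4%) had a number from 4001 to 6000, against 13.2% of the other eligible transcripts, a window chosen after the numbers were seen. Consecutive stem numbers occurred in 4 pairs of members, of which 3 pairs lay within set A, for example tree_swallow005663t1_sg0.0 and tree_swallow005664t1_sg0.0 (r = 0.94 over 20 birds). The remaining pair, tree_swallow005744t1_sg0.0 and tree_swallow005745t1_sg0.0, had an r of -0.28.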
